A study of Mus musculus with 6 samples.

Results

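Kdm1a, Kdm1b and 7 genes for subunits of the CoREST complex were followed in germinal centre B cells of mice, with and without a conditional deletion of Kdm1a. The 9 genes were taken by symbol from a table of 15861 genes: the LSD1 paralogues Kdm1a and Kdm1b, the scaffold genes Rcor1, Rcor2 and Rcor3, and Hmg20b, Phf21a, Gse1 and Zmym2. All 9 were in the table and passed the filter on low counts, which left 10926 genes. Polyadenylated RNA came from B220+ GL7+ FAS+ sorted cells of littermates on a C57BL/6 background, with 1 mouse per library. The WT group held 3 mice with floxed Lsd1 alleles (Lsd1 f/f) and no Cre, and the KO group 3 mice with Cgamma-cre+/- on top of the same Lsd1 f/f alleles. Lsd1 is the older name of Kdm1a. Both groups therefore carry the floxed allele, and no library with Cre and unfloxed alleles was analysed here. The labels do not describe the Cre driver further, and the sources used here give neither the age of the mice nor an immunisation.

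LSD1, the product of Kdm1a, is a flavin-dependent enzyme that removes methyl groups from lysine 4 of histone H3, a mark of active promoters and enhancers. It is held on chromatin by CoREST, a scaffold protein that also binds the histone deacetylases HDAC1 and HDAC2, so that demethylation and deacetylation act on the same nucleosome. Transcription factors such as GFI1, REST and, in germinal centre B cells, BCL6 are known to recruit LSD1 to the genes they repress.

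The libraries held 3390805 to 5524852 counts in WT and 12325300 to 14327654 in KO. Depth separated the groups completely, and genotype and depth cannot be told apart. Thinning all libraries to 3390805 counts left the log2 fold change of Kdm1a at -1.17, against -1.19 at the deposited depth. The 10 germinal centre B cell markers summed to between 7976 and 10910 CPM in WT (counts scaled to library size, here to the plain library total) and to between 7097 and 8949 in KO. Of these markers Bcl6 was abundant, and Mef2b was at or near 0 in every library. Cd79a and Cd79b, which encode the signalling chains of the B cell receptor, lay below WT in each KO library, as did 7.95% of all genes tested. Their log2 fold changes of -0.48 and -0.67 did not pass (edgeR adjusted p of 0.365 and 0.334). They were the only 2 of the 9 tested markers whose groups did not overlap, and Ptprc had a log2 fold change above 0 (0.35). For the 10 markers of macrophages and dendritic cells the sum was 246 to 2087 CPM in WT and 158 to 2446 in KO, with WT 1, KO 1 and KO 2 low. The 7 measured T cell markers summed to 178 to 249 CPM in WT and 154 to 209 in KO, nearly all of it Lck, and Cd3d, Cd3g, Cd8a, Il7r and Bcl11b were at 0 in at least 1 library. In bulk RNA, fewer cells of a type and less RNA per cell cannot be told apart.

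Paralogues can exchange reads only where their transcripts are alike, so the closest coding stretches of the paralogues are shown first. Each pair is the 60-base window, without gaps, with the most identical bases between the longest coding sequences in GENCODE vM21 (mm10), and capitals mark the bases that differ. Positions count from the first base of the start codon.
Rcor1 (coding bases 550 to 609): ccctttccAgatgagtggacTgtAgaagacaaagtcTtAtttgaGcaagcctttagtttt
Rcor3 (coding bases 418 to 477): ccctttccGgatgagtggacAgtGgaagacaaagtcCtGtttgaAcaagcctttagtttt
Kdm1a (coding bases 931 to 990): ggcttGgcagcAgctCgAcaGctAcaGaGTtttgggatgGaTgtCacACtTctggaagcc
Kdm1b (coding bases 1198 to 1257): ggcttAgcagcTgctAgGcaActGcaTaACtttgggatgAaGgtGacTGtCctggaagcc
The Rcor1 and Rcor3 windows differ at 6 of 60 bases and those of Kdm1a and Kdm1b at 15. The longest stretch identical in both coding sequences was 23 bases for Rcor1 and Rcor3, and 11 bases for Kdm1a and Kdm1b. No run of 50 bases of a coding transcript of Kdm1a, Rcor2, Hmg20b or Phf21a occurred in transcripts of any other annotated gene, on either strand. Other members do share sequence with genes that lie over them. For Gse1, 28.7% of its 50-base runs lay in the overlapping replication gene Gins2 on the other strand or in a second overlapping transcript, for Rcor3 14.1% lay in unnamed antisense genes, and for Kdm1b 8.89% lay in Dek. For Zmym2, 2.2% occurred in its paralogue Zmym5, and for Rcor1 0.0887% in an unnamed gene on its own strand. The sources used here do not give the strand setting of the counting, so the counts of Gse1, Rcor3 and Kdm1b are less certain.

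Per length of transcript, Hmg20b and Kdm1a were the most abundant of the 9 genes in WT cells, and Rcor2 and Rcor3 the least. On the scale of TMM-normalised CPM per kb of the longest coding transcript, Hmg20b was at 41.9 ± 8.93 and Kdm1a at 34.3 ± 8.72 in WT (SD, n = 3). The ranges of these 2 genes over the WT libraries overlapped. Both lay above Gse1 (12.1 ± 3.72), Rcor1 (8.91 ± 3.10), Zmym2 (5.92 ± 2.75), Phf21a (4.23 ± 0.627) and Kdm1b (4.12 ± 0.734), of which each overlapped the next in the order. Rcor3 (2.04 ± 0.269) and Rcor2 (1.02 ± 0.161) followed, each below the gene before it in every WT library. With the length of all exons merged, Rcor2 lay above Rcor3 instead, as the merged exons of Rcor3 span 13622 bases and its longest coding transcript 3791. In KO the means gave Kdm1a as second still, at 15.0 ± 10.5, but its libraries spread from 7.20 to 27.0 and overlapped those of Rcor1 (11.3 ± 2.41). With merged exons the KO mean of Kdm1a, 8.80 ± 6.17, lay below that of Rcor1 instead.

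**Figure D1:**
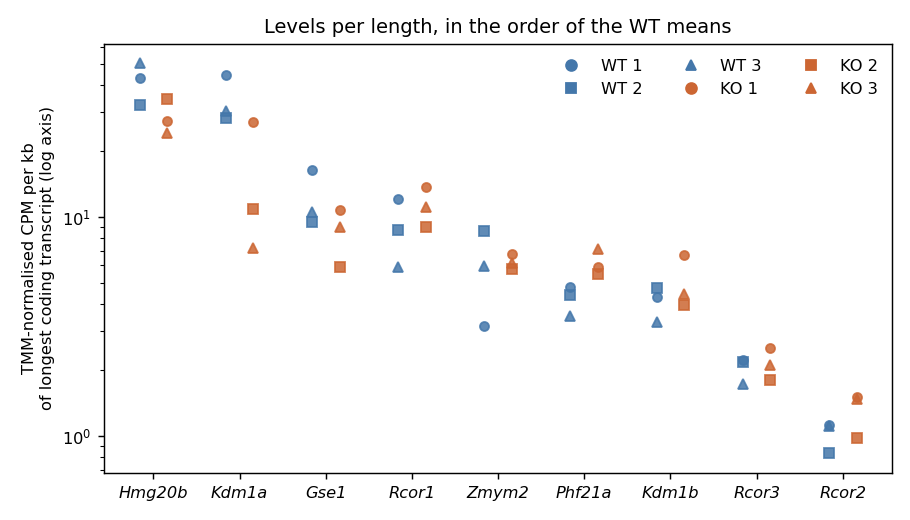
Level of each gene per kb of its longest coding transcript (TMM-normalised CPM per kb, log axis), with 1 symbol per library, WT in blue and KO in orange, ordered by the WT mean. Hmg20b and Kdm1a stand above the rest in WT, and of the 9 genes Kdm1a has the widest gap between its KO libraries, from 7.20 to 27.0.

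Kdm1a is the target of the deletion and was the member with the largest fold change, but the 3 KO libraries differed. Kdm1a (chromosome 4, 136550540 to 136602723, minus strand, mm10) had 511, 436 and 297 counts in WT and 1078, 468 and 305 in the deeper KO libraries. Relative to the WT mean of 104 TMM-normalised CPM, it stood at 78.7% in KO 1, 31.8% in KO 2 and 21.0% in KO 3. Transcripts of the gene thus remained measurable in every KO library. Since the table gives 1 count per gene, reads of exons that the deletion leaves in place and reads of cells without recombination cannot be told apart. The log2 fold change was -1.19 with a 95% interval of -2.37 to -0.01, and it missed the threshold (adjusted p = 0.393 by the quasi-likelihood test of edgeR). In that test 9 of 10926 genes, or 0.0824%, passed at an adjusted p under 0.05.

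That outcome changed when KO 1 was left out. Ranked by the difference from the WT mean of log2 CPM among all genes tested, Kdm1a stood at the 0.0275th percentile in KO 3, the 2.54th in KO 2 and the 25.8th in KO 1. In KO 3 and KO 2 it was thus among the genes furthest below WT, and in KO 1 it was not. Without KO 1 the log2 fold change was -1.93 (95% interval -2.60 to -1.26, edgeR adjusted p = 0.0169), and Kdm1a was 1 of 24 genes that passed of 10597 tested, a share of 0.226%. KO 1 stands apart by its Kdm1a level itself, so this call depends on the measured outcome and is no independent support. With any other single library left out, Kdm1a ran from -1.32 to -0.88 on the log2 scale and did not pass (edgeR adjusted p from 0.282 to 0.953). By TMM and by DESeq2 size factors the groups did not overlap, but they overlapped as shares of the library total and by upper-quartile scaling. KO 1 also had the lowest germinal centre marker sum of the 6 libraries, 7097 CPM. The part of that difference in the Kdm1a level of KO 1 was not tested.

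A ratio of 2 genes within a library needs no scaling factor, and by such ratios each KO library, KO 1 included, lay below each WT library. The ratio of Kdm1a to Rcor1 counts was 1.95, 1.72 and 2.75 in WT and 1.05, 0.648 and 0.347 in KO. Relative to the transcript of its main scaffold, that of the enzyme was thus lower in all 3 KO libraries. The log2 ratio differed by -1.76 between KO and WT (1.07 ± 0.349 in WT and -0.70 ± 0.798 in KO, SD, n = 3 each). A two-sided exact permutation test gave p = 0.1, the smallest p that 3 against 3 libraries allow. The ratio of Kdm1a to Kdm1b was 6.23, 3.60 and 5.60 in WT and 2.46, 1.68 and 0.981 in KO, a log2 difference of -1.65 (exact permutation p = 0.1). Against the summed counts of the other 8 genes the ratio was 0.394, 0.292 and 0.330 in WT and 0.247, 0.131 and 0.0756 in KO, a log2 difference of -1.32 (exact permutation p = 0.1). The p adjusted over these 3 ratios was also 0.1. In KO 1, Rcor1 and Kdm1b were at their highest of the 6 libraries, at 154.5% and 162% of the WT mean, against 78.7% for Kdm1a. How often ratios of other genes separate the groups in this way was not computed. By level alone, 7.95% of all genes tested lay below WT in every KO library. A ratio shows unequal change and not which gene changed.

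**Figure D2:**
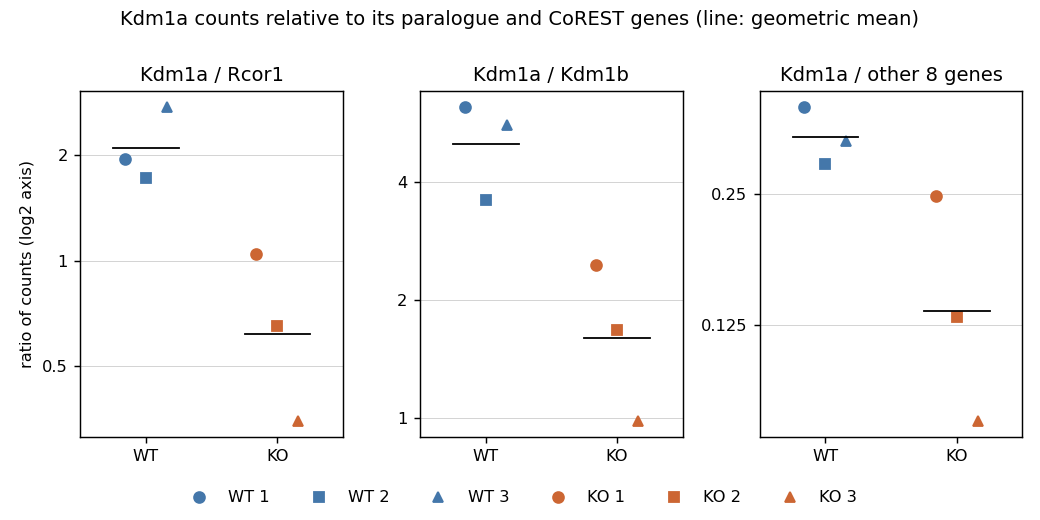
Ratio of Kdm1a counts to those of Rcor1, of Kdm1b and of the other 8 genes together in each library (log2 axis, line at the geometric mean). All 3 KO libraries lie below all 3 WT libraries in each panel, with KO 1 the nearest to WT and KO 3 the furthest.

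Kdm1b encodes LSD2, the other flavin-dependent H3K4 demethylase of the genome, which lacks the tower domain through which LSD1 binds CoREST. Kdm1b (chromosome 13, 47043499 to 47085279, plus strand) had TMM-normalised levels of 21.5, 23.7 and 16.5 CPM in the WT mice, against 33.3, 19.7 and 22.2 CPM in the KO mice. KO 1 was above every WT library, and the other KO libraries lay inside the WT range. The log2 fold change was 0.28 (95% interval -0.32 to 0.88, edgeR adjusted p = 0.717) and 0.02 without KO 1 (95% interval -0.62 to 0.66). As a fold, the interval with all libraries runs from 0.803 to 1.84, and after thinning to equal depth the upper limit of the log2 fold change was 1.16. Dek, whose exons overlap Kdm1b on the other strand, stood at 0.19 on the log2 scale (SE 0.37). By length of the longest coding transcript, Kdm1b made up 8.88% to 14.4% of the summed level of the 2 demethylase genes in WT and 19.8% to 38.2% in KO. With merged exons it made up 13.1% to 20.7% in WT and 27.7% to 49.0% in KO. This share restates the ratio of Kdm1a to Kdm1b and is no separate observation. Both levels enter this share, and in KO 1 Kdm1a stood at 78.7% and Kdm1b at 162% of the WT mean.

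The 3 scaffold genes carry the ELM2 and SANT domains that bind the deacetylases, and a linker that binds LSD1. Rcor1, which encodes CoREST1, (chromosome 12, 111039351 to 111115901, plus strand) gave 68.8, 49.5 and 33.7 TMM-normalised CPM in the WT mice, against 78.2, 51.0 and 62.8 in the KO mice. Its WT libraries spread over 2.04-fold and overlapped the KO libraries, and the log2 fold change was 0.33 (95% interval -0.27 to 0.94, edgeR adjusted p = 0.655), with 0.11 without WT 3, 0.16 without KO 1 and 0.60 without WT 1. Rcor3 (chromosome 1, 192098546 to 192138062, minus strand) gave 8.40, 8.21 and 6.55 CPM in the WT mice, against 9.57, 6.85 and 8.01 in the KO mice, with a log2 fold change of 0.07 (95% interval -0.65 to 0.79). Rcor2, known for its part in embryonic stem cells and the nervous system (chromosome 19, 7267325 to 7275225, plus strand), gave 3.15, 2.35 and 3.12 CPM in the WT mice, against 4.25, 2.75 and 4.15 in the KO mice. These WT levels rest on 12, 12 and 10 counts. The interval of the log2 fold change, -0.61 to 1.37 around 0.38, is the widest of the members other than Kdm1a. With all libraries thinned to equal depth, the log2 fold change of Rcor2 was 0.09 (SE 0.63). No scaffold gene passed, and the groups overlapped for all 3. The makeup of the family by length also overlapped between the groups. Rcor1 made up 67.7% to 78.4% of the summed level of the 3 genes in WT and 75.5% to 77.3% in KO, Rcor3 14.4% to 19.7% and 14.2% to 15.4%, and Rcor2 7.10% to 12.6% and 8.30% to 10.1%.

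Of the accessory subunits, Phf21a was above WT in every KO library, and Hmg20b and Gse1 had fold changes below 0, but none passed over all genes. Phf21a encodes BHC80, whose PHD finger reads histone H3 tails with unmethylated lysine 4, the product of LSD1. Phf21a (chromosome 2, 92093117 to 92364666, plus strand) had TMM-normalised levels of 30.2, 27.8 and 22.4 CPM in the WT mice, against 37.4, 34.9 and 45.1 CPM in the KO mice. The lowest KO library lay above the highest WT library on all 4 scales tried, as it did for 8.98% of the genes tested. The log2 fold change was 0.54 (95% interval 0.06 to 1.03, edgeR adjusted p = 0.349). Without KO 1 it was 0.57, with an interval that includes 0 (-0.01 to 1.15). Over the 15 alternative fits it ran from 0.41 to 0.70, with adjusted p from 0.198 to 0.953.

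Hmg20b encodes BRAF35, an HMG-box protein that binds DNA within the complex. Hmg20b (chromosome 10, 81346048 to 81350480, minus strand) had TMM-normalised levels of 69.6, 52.6 and 81.4 CPM in the WT mice, against 44.3, 55.8 and 39.0 CPM in the KO mice. KO 1 and KO 3 lay below all WT libraries, and KO 2 lay between WT 2 and WT 1. The log2 fold change was -0.55 (95% interval -1.06 to -0.03, edgeR adjusted p = 0.370). Without KO 1 it was -0.53, with an interval that includes 0 (-1.16 to 0.10). Gse1, a coiled-coil subunit found with LSD1 and the deacetylases (chromosome 8, 120228456 to 120581390, plus strand), gave 117, 67.4 and 75.4 CPM in the WT mice, against 76.9, 42.0 and 64.1 in the KO mice. KO 1 lay inside the WT range and the other KO libraries below it. The log2 fold change was -0.51 (95% interval -1.11 to 0.10, edgeR adjusted p = 0.476). It was -0.71 without KO 1 (95% interval -1.38 to -0.05, edgeR adjusted p = 0.629), -0.25 without WT 1 and -0.29 without KO 2, so its size rests on single libraries. Gins2, which overlaps Gse1, stood at -0.54 on the log2 scale (SE 0.22), and its part in the Gse1 value was not tested.

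Zmym2, a MYM-type zinc finger gene whose protein binds SUMO (chromosome 14, 56886653 to 56962701, plus strand), differed most among the WT libraries. Its TMM-normalised levels were 22.1, 60.4 and 41.5 CPM in the WT mice, a 2.74-fold spread, against 47.2, 40.3 and 42.9 CPM in the KO mice, a 1.17-fold spread. All KO libraries lay inside the WT range. The log2 fold change was 0.07 (95% interval -0.62 to 0.76, edgeR adjusted p = 0.956), but -0.24 without WT 1 and 0.46 without WT 2, so its sign rests on single WT libraries.

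**Figure D3:**
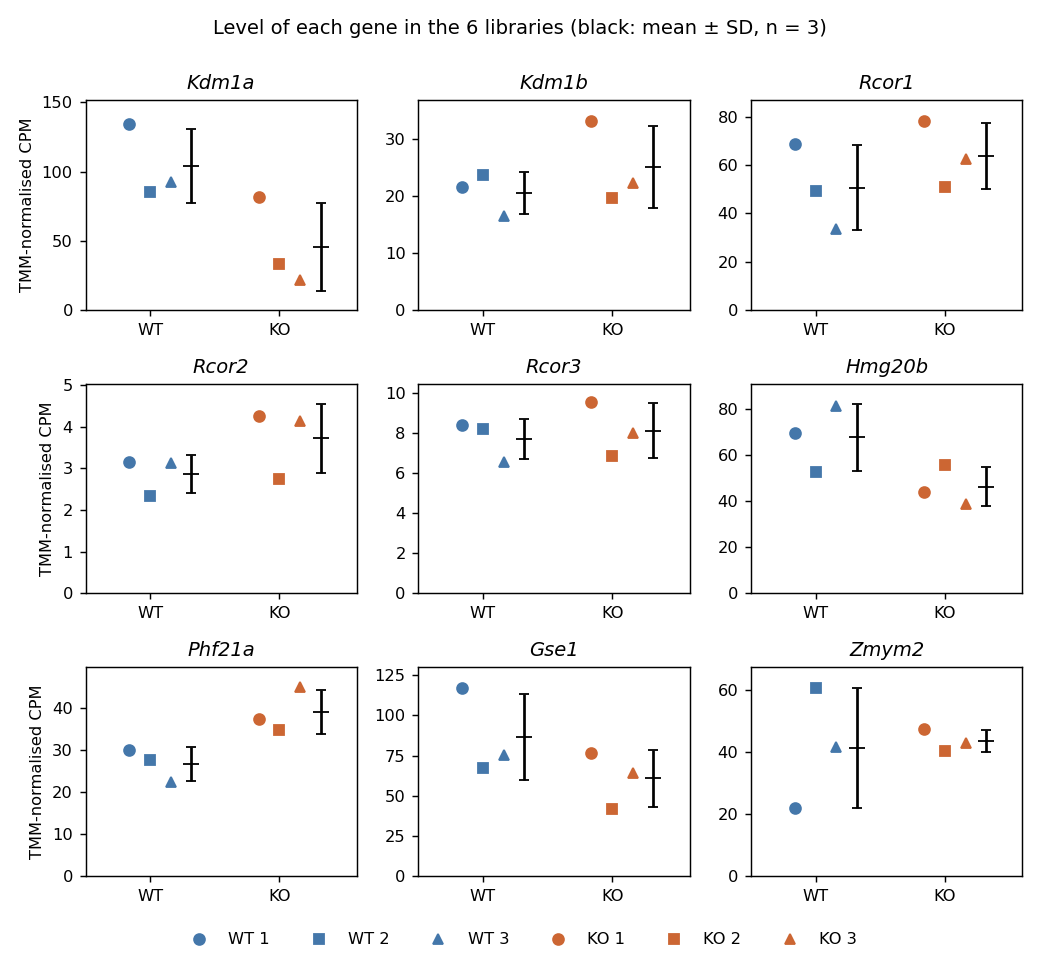
TMM-normalised CPM of each gene in the 3 WT (blue) and 3 KO (orange) libraries, with the mean and SD in black. Kdm1a is lower in KO, with KO 1 at 81.9 CPM close to the lowest WT library at 85.2, Phf21a is above WT in all KO libraries, and for the other 7 genes the groups overlap.

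Over the 9 genes, 0 passed with all libraries at an adjusted p under 0.05 by edgeR, against 0.0824% of all genes. DESeq2 and limma-voom called none of them either, and the fit without KO 1 called Kdm1a alone. At an unadjusted p under 0.05 there were 3 of 9, Kdm1a, Hmg20b and Phf21a, against 12.6% of all genes tested. The groups did not overlap for 1 member below WT (Kdm1a, against 7.95% of all genes) and 1 above WT (Phf21a, against 10%). The median log2 fold change was 0.07 over the 9 genes and 0.18 over the 8 without Kdm1a, against 0.01 over all genes tested. Without scaling beyond library size, the median of all genes was 0.13. With all libraries the intervals of Kdm1b, Rcor1, Rcor3 and Zmym2 exclude a 2-fold change in either direction, whereas those of Rcor2, Phf21a, Hmg20b and Gse1 each include one in 1 direction. That exclusion is not firm: of 13 other edgeR fits, 5 gave an interval that includes a 2-fold change for Kdm1b, 4 for Rcor1 and 1 each for Rcor3 and Zmym2, with upper limits of 1.02 to 1.17 on the log2 scale.

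**Figure D4:**
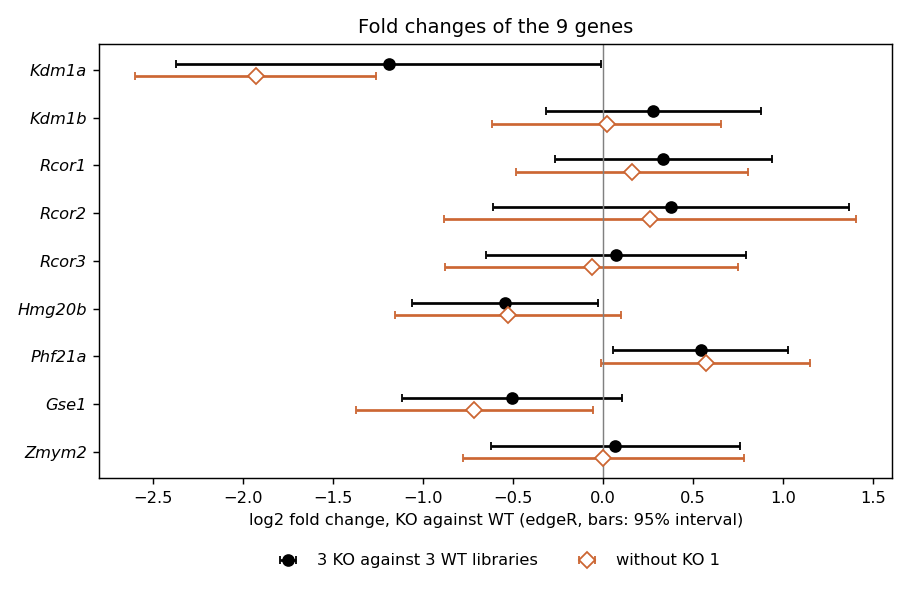
Log2 fold change of each gene in KO against WT with its 95% interval (edgeR), with all libraries in black and without KO 1 in orange. Kdm1a moves from -1.19 to -1.93 when KO 1 is left out. Hmg20b and Phf21a stay near -0.55 and 0.54, but without KO 1 both of their intervals include 0.

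The patterns of the other members across the libraries lay at varied distances from that of Kdm1a. Likeness was measured as the root mean square difference, over the 6 libraries, of log2 CPM centred on each gene's mean, where 0 is the same pattern. Of the members Gse1 was the nearest to Kdm1a, at 0.658 log2 units, and Phf21a the furthest, at 1.16. Kdm1b and Rcor3 were the closest pair of members, at 0.152, and Kdm1b and Rcor1 were at 0.230. The distance is not scaled for spread, so genes that vary little lie close to each other whatever their patterns. No background over all genes was computed for these pairs. Among 10459 named genes, the median distance from Kdm1a was 0.970 and the 3 nearest were Dlg5 (0.241), Celsr2 (0.293) and Emp2 (0.307). Dlg5 gave 9.72, 5.86 and 5.92 TMM-normalised CPM in the WT mice, against 7.75, 1.69 and 1.64 in the KO mice, so that KO 1 stood within the WT range. They were picked as the nearest of many genes over 6 libraries, and their distances carry no test.

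The partners of the complex beyond the 9 genes showed no called change. Of the other CoREST partners, among them the deacetylases Hdac1 and Hdac2, 9 were tested, 0 passed in either direction, and the median log2 fold change was 0.13. Hdac1 gave 162, 218 and 183 TMM-normalised CPM in the WT mice, against 168, 181 and 149 in the KO mice (log2 fold change -0.18, SE 0.20). Hdac2 gave 63.3, 82.9 and 52.1 CPM in the WT mice, against 78.4, 72.7 and 65.8 in the KO mice (log2 fold change 0.13, SE 0.22). Both deacetylases overlapped between the groups. The smallest p values of that list were those of Zfp217, a zinc finger gene, at 0.87 (SE 0.29, edgeR adjusted p = 0.284), of the histone chaperone gene Rbbp4 at -0.61 (SE 0.21, adjusted p = 0.296) and of Rreb1 at 0.50 (SE 0.29). Zfp217 lay above WT in every KO library, as did 10% of all genes tested, and Rbbp4 below WT, as did 7.95%. Of 9 other scaffold genes with ELM2 and SANT domains, 0 passed and 1 had a log2 fold change above 0, with a median of -0.19. Mta2 stood at -0.45 (SE 0.19), Mier2 at -0.45 (SE 0.26) and Mier3 at -0.58 (SE 0.34). Mta2 also lay below WT in every KO library, whereas Mier2 and Mier3 overlapped between the groups. Of 9 genes of NuRD, a deacetylase and remodelling complex that also binds LSD1, 0 passed and the median was -0.12. The helicase gene Chd3 was at 0.97 (SE 0.31) and Mbd3 at -0.45 (SE 0.24). Mta1, Mta2 and Mta3 are in both this list and that of the scaffold genes, and Mta3 is the median gene here.

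Genes of enzymes that write or erase the same marks gave no call either. Of 12 genes of the H3K4 methyltransferase complexes 0 passed, with a median of 0.03, and Kmt2c stood at 0.56 (SE 0.25), the shared subunit gene Ash2l at 0.44 (SE 0.20) and Men1 at -0.46 (SE 0.22). Of 11 other demethylase genes for lysines 4 and 9 of histone H3, 0 passed, with a median of 0.17. Kdm5a, an H3K4 demethylase of the other enzyme family, was at 0.56 (SE 0.23), Kdm4b at -0.56 (SE 0.23) and Kdm7a at 0.68 (SE 0.29).

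Of genes of factors that bring LSD1 to DNA, 0 passed with all libraries. Of the 15 listed genes 11 were tested, with 9 above 0, against 51.3% of all genes tested. Their median log2 fold change was 1.37, which was 1.09 without KO 1. Hic1 had 5, 3 and 2 counts in WT against 36, 46 and 35 in KO, and Zfp516 11, 5 and 6 against 72, 55 and 75. Both needed their KO libraries to pass the filter on low counts, both are among the 9 above 0, and Zfp516 is the median gene. The median of 1.37 thus depends on that filter. Among the other tested genes of the list the middle value was that of Rest, at 0.56. Above it lay Gfi1, Zeb2, L3mbtl3 and Prdm1, and below it Sfmbt1 (0.46), Zeb1 (0.23), Bcl6 (-0.04) and Gfi1b (-0.42). The 4 genes not tested had too few counts, and this list was drawn up with earlier results for Gfi1, L3mbtl3 and Prdm1 known, so its count and median are a description only. L3mbtl3, a reader of methylated lysine, gave 7.62, 8.80 and 10.3 TMM-normalised CPM in the WT mice, against 22.2, 27.5 and 39.1 in the KO mice. Its log2 fold change was 1.74 (SE 0.29, edgeR adjusted p = 0.0671). Without KO 1, the lowest KO library for this gene, it passed (1.90, edgeR adjusted p = 0.0219). That fit called 0.226% of all genes, against 0.0824% with all libraries. Gfi1 gave 6.30, 5.47 and 1.56 CPM in the WT mice, against 14.7, 13.6 and 16.4 in the KO mice (log2 fold change 1.72, SE 0.43). Zeb2 stood at 1.73 (SE 0.50) with KO 1 the highest library, and at 1.09 without it. Prdm1, which drives plasma cell formation and is also a plasma cell marker, gave 4.2, 3.13 and 1.56 CPM in the WT mice, against 26.9, 3.18 and 14.3 in the KO mice (log2 fold change 2.30, SE 0.77), and KO 2 lay inside the WT range. Of the 5 plasma cell markers 0 passed, with a median of 0.13. Irf4, a transcription factor of activated B cells and plasma cells, was above WT in each KO library, as were 10% of all genes tested. Its log2 fold change was 1.10 (SE 0.29), with KO 1 the highest at 104 CPM, whereas Xbp1, Sdc1 and Jchain overlapped between the groups. These markers summed to 1416 to 2284 CPM in WT and 1898 to 2532 in KO, most of it Jchain (log2 fold change 0.13). Prdm1 and Irf4 add little to these sums. The part of plasma cell transcripts in the values of the recruiting factors was not tested. For L3mbtl3 and Gfi1 all KO libraries were above all WT libraries, as for 10% of all genes tested. KO 1, which was nearest to WT for Kdm1a, lay between KO 2 and KO 3 for Gfi1 and was the lowest of the 3 for L3mbtl3.

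**Figure D5:**
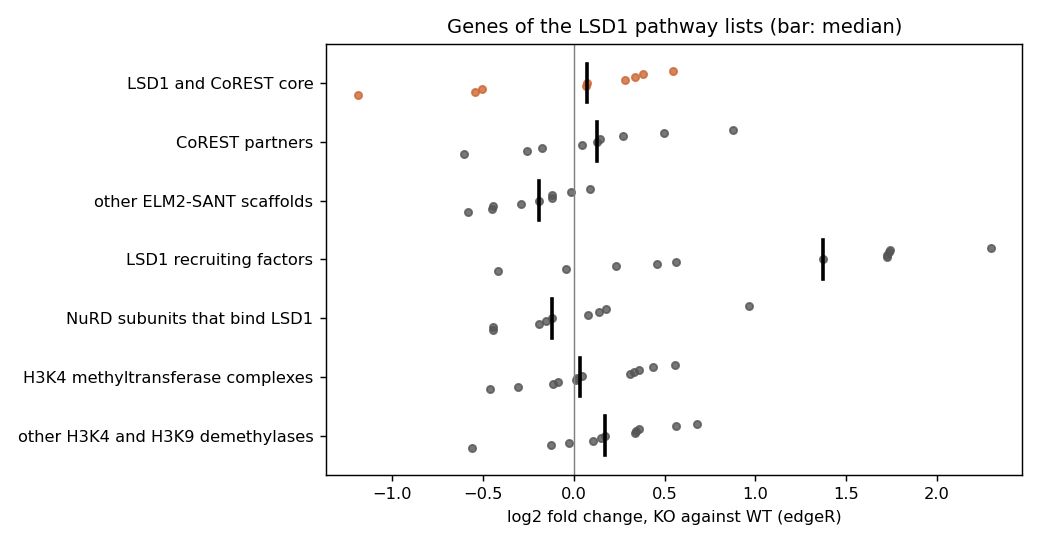
Log2 fold change in KO against WT (edgeR) of each tested gene, with 1 row per list and a bar at the median. The 9 LSD1 and CoREST core genes (orange) centre on 0.07 with Kdm1a at -1.19. The recruiting factors centre on 1.37, the value of Zfp516, which has few counts in WT and needed its KO libraries to pass the filter. With Hic1 and Zfp516 set aside, the middle value is 0.56 (Rest).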

How the data were processed

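The submitters' processing notes name mm10, CASAVA, the aligner STAR (2.5.2) and the counter featureCounts (1.5.2). The authors deposited raw read counts per gene symbol, 1 column per mouse. The sources used here do not give the annotation, the strand setting or the treatment of multiply mapped reads. The test was edgeR's quasi-likelihood test (edgeR 4.0.16, R 4.3.3, filterByExpr, TMM, robust glmQLFit and glmQLFTest, two-sided, Benjamini-Hochberg over 10926 genes, threshold 0.05). Standard errors and 95% intervals follow from the F statistic. Log2 CPM used a prior count of 2. Coordinates, lengths and transcript sequences came from GENCODE vM21. The edgeR, DESeq2 and limma-voom fits were tested on simulated data. Libraries of a group differed beyond counting noise (chi-square per degree of freedom 14.4 to 50.9). One read equals 0.181 to 0.295 CPM in the WT libraries, against 0.0698 to 0.0811 CPM in the deeper KO libraries.

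The alternatives were 3 other scalings, 2 other filters, DESeq2 1.42.0, limma-voom (limma 3.58.1), a replicate block, thinning and each library left out. The members and lists were chosen with earlier results of these data known. All 9 members were named, with up to 3 genes of each list by smallest p and the 3 genes nearest to Kdm1a in pattern. Hdac1, Hdac2, Dek, Gins2, Zmym5, Prdm1 and the cell type markers were named beyond that rule, after their values were seen.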

Additional observations from a re-analysis of the deposited data

How the results depend on the processing

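The count of genes that passed was 9 with all libraries and TMM, 18 with library size alone, 93 with no filter, 122 by DESeq2 and 2 by limma-voom, and it ran from 1 to 24 when 1 library was left out (1 without WT 2 or WT 3, 3 without KO 2, 18 without KO 3, 24 without KO 1). The cause of these differences was not tested. The count of members that passed was 0 in 14 of 15 alternatives and 1 without KO 1 (Kdm1a). With 1 library left out, the log2 fold change of Kdm1a ran from -1.93 to -0.88 and passed only without KO 1, and over all 15 alternatives it kept its sign. With 1 library left out, Rcor3 ran from -0.063 to 0.19, below 0 without WT 3 (-0.034) and without KO 1, and Zmym2 from -0.24 (without WT 1) to 0.46. The other 6 members kept their sign in each alternative that could be fitted, and Rcor2 was left out by the stricter filter. The ratios of Kdm1a to Rcor1 and to Kdm1b kept their direction in all 7 alternatives, but these could not test the direction. In both ratios each KO library lay below each WT library, so leaving 1 library out could not reverse the sign. The remaining alternative was the ratio of Kdm1a to the summed other members, a separate ratio and no repeat of either.

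The replicate numbers were not shown to pair the mice: deviations from the group means correlated at 0.341, -0.0525 and 0.443 for same-numbered libraries, and WT 2 correlated best with KO 3. With the replicate block 21 genes passed and Kdm1a was at -1.38 (edgeR adjusted p = 0.101). At the WT depth Rcor2 rests on 12 or fewer counts per library.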
